A study of Homo sapiens with 80 samples.

Results

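The comparison described here set cells kept at 9 g for 15 min directly against cells kept at 9 g for 3 min. Its members were the libraries that the sample titles place in these time points: 5 libraries of hypg15 (library numbers 76 to 80) and 6 libraries of hypg3 (library numbers 69 to 74). These are 11 of the 80 samples of the series and 11 of the 60 in its 9 g experiment. Library 75 of hypg15 was left out, because its column holds 0 counts for chromosomes 4 to 9 and X and for the mitochondrial genome. Both groups carry library numbers from 69 to 80, so a difference between these library numbers and those of the other 9 g groups does not enter.

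The study followed the transcriptome of Jurkat T cells over short exposures to hypergravity. Jurkat, clone E6-1, is an established line of human leukemic T lymphocytes that grows in suspension. Cells were drawn into pipettes and spun in a centrifuge built to hold them, and lysis followed directly. The libraries kept the strand of each RNA and were made after removal of ribosomal RNA, with no poly(A) selection.

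Both groups spent the same time in the pipette. Cells of hypg3 were held for 12 min at 1 g and then for 3 min at 9 g, and cells of hypg15 were at 9 g for the whole 15 min. A longer exposure at 9 g and a shorter wait at 1 g before it are therefore the same difference here, and they cannot be told apart. Total counts per library were 22634465, 26438639, 25435259, 23463122 and 25781108 at 15 min, in libraries 76 to 80. At 3 min they were 29915663, 36406463, 32490669, 31568356, 23538676 and 30043677, in libraries 69 to 74. The sources do not say that the replicates came from separate cultures, so the p-values below measure the spread between these samples, which may be technical.

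A shift of minutes can be seen in steady-state RNA mainly where a message is short-lived or where its gene is switched on or off sharply. Immediate early genes such as JUN and EGR1 and the short-lived message of MYC are classical examples, and heat shock factor HSF1 can raise the transcription of chaperone genes within minutes of a stress. Total RNA libraries also contain RNA that never accumulates in the cytoplasm, such as antisense transcripts, introns and RNA past the ends of genes, which nuclear exosome and termination factors remove quickly.

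At 15 min of 9 g, messages of the transcription factor genes MYC and JUN, of the histone-binding protein gene PHF23 and of CHAC1, which encodes an enzyme that breaks down glutathione, were lower than at 3 min by −0.42, −0.46, −0.53 and −0.82 on the log2 scale (standard errors 0.04, 0.08, 0.05 and 0.11, 5 against 6 libraries). EGR1, an immediate early gene like JUN, was higher by 0.53, and its call was lost when library 70, 72, 76 or 80 was left out. The other 25 of 27 immediate early genes tested were not called, and the median over all 27 was 0.07. Messages for the glucose transporter SLC2A1 and the glycolysis regulator PFKFB3 were higher by 0.45 and 0.44 (standard errors 0.06 and 0.05). SLC2A1 was the 1 call among 19 genes from glucose uptake to lactate, with a median of 0.00. The chaperone messages HSPA8, HSPA1B, SERPINH1 and DNAJB1 were higher by 0.36, 0.43, 0.37 and 0.30 (standard errors 0.06, 0.08, 0.08 and 0.05). The other 18 of 22 chaperones tested were not called, and the median over all 22 was −0.00. The SERPINH1 call was lost when library 72, 76, 79 or 80 was left out. Most genes that were higher at 15 min were noncoding genes or pseudogenes, and 130 of the 134 that were lower were protein-coding. The median level of the higher genes lay below that of the lower genes, and some of the higher genes passed the filter on low counts only through the libraries of 15 min. MYC, PFKFB3, HSPA8 and DNAJB1 lie outside the rule by which genes were named and were chosen after their values were seen.

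The label of the cells was checked first. All 8 T cell markers were measured, and their summed level lay between 2730 and 3139 CPM over the 11 libraries, with the kinase gene LCK as the most abundant member at a mean of 1355 CPM. CPM are counts per 1000000 counts of a library after TMM scaling, a factor that sets the bulk of genes equal between libraries. The Jurkat markers TAL1, GATA3 and RAG1 summed to between 299 and 353 CPM, and TAL1, a leukemia transcription factor, was the most abundant with a mean of 269 CPM. Of the B cell markers CD79A was present, at a mean of 63.1 CPM, and MS4A1 did not pass the filter on low counts. Myeloid, erythroid and epithelial markers summed to at most 1.17, 0.128 and 0.322 CPM in any of the 11 libraries, and 2 of the 3 erythroid markers had 0 counts. Of the fibroblast markers, COL1A1 was measured at a mean of 6.68 CPM and the other 2 had 0 counts. None of the 13 markers tested was called different between the groups in edgeR's test, the largest estimate being that of PTPRC at −0.41 (standard error 0.22, edgeR adjusted p = 0.373). The estimate of PTPRC ran from −0.55 to −0.25 over the fits that left out 1 library. RAG1, a recombinase gene, had the estimate −0.38 and was called lower by DESeq2 (DESeq2 adjusted p = 0.0455), and by edgeR with GC content taken out (edgeR adjusted p = 0.0438) or without the filter on low counts (0.0475).

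Of the 15915 genes that passed the filter, 405 or 2.54% were called at an adjusted p-value under 0.05 in edgeR's quasi-likelihood test, in which Benjamini-Hochberg adjustment covers all genes tested. Calls below are those of this test, with TMM scaling, the filter and the 11 libraries alone, unless another setting is named. At 15 min, 271 of them (1.7%) were higher and 134 (0.842%) lower than at 3 min. Of these, 48 (0.302%) also had a log2 fold change beyond 1 in size, of which 47 (0.295%) were higher and 1 (0.00628%) lower. Values of both groups did not overlap for 387 genes with higher (2.43%) and 234 genes with lower (1.47%) values at 15 min, called or not.

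The split between higher and lower calls depended on the correction for base composition. When a smooth curve of each library's counts against the GC content of genes was taken out, 892 genes were called (5.6%), of which 392 were higher (2.46%) and 500 lower (3.14%). Of the calls made without this correction, 266 of 271 higher and 128 of 134 lower genes were also called with it, and all 405 kept their sign. Leaving out library 72, 79 or 70 gave 217, 246 and 251 calls in place of 405. Total counts were lower at 15 min, and after thinning of all libraries to the smallest total, chosen after seeing the data, 234 genes were called higher and 131 lower.

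**Figure D1:**
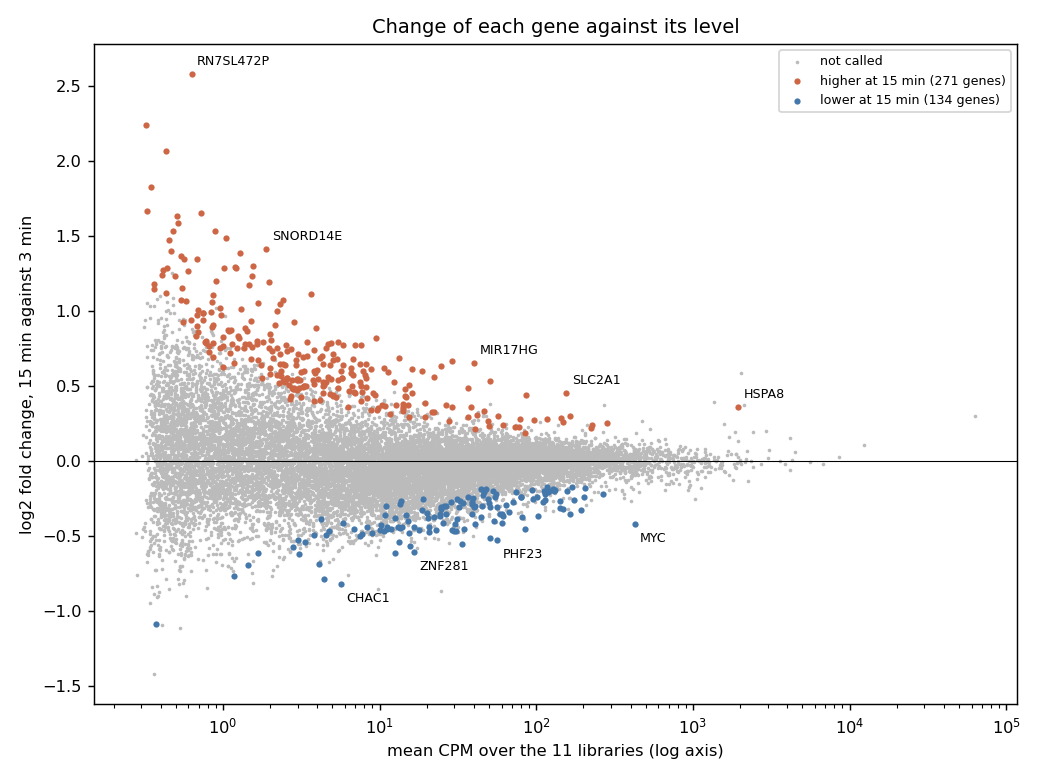
Log2 fold change of each gene, 15 min against 3 min (vertical axis), against its mean level in CPM over the 11 libraries (horizontal, log axis), with called genes in colour and a small number of uncalled genes not drawn. The 271 higher genes lie mostly on the left, with a median mean level of 3.15 CPM, and the 134 lower genes further to the right, with a median of 31.6 CPM.

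The genes called higher had a median log2 fold change of 0.64 and the genes called lower one of −0.36, beside −0.01 over all genes tested. Among the higher genes 80 of 271 were protein-coding, and among the lower genes 130 of 134, beside 12093 of 15915 over all genes tested. The median exon length was 2293 bases for higher and 4953.5 bases for lower genes, beside 4433 bases over all genes. Their median GC content was 54.0% and 48.7%, beside 50.0% over all genes.

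MYC encodes a transcription factor that drives growth and proliferation, and its messenger RNA is short-lived. It (ENSG00000136997) lies on chromosome 8 of GRCh38. MYC stood at 371, 342, 362, 361 and 356 CPM in libraries 76 to 80, and at 3 min it ranged from 458 to 504 CPM (median 481). All 5 libraries of 15 min lay below every library of 3 min, with a gap wider than the range within either group. The log2 fold change of MYC was −0.42 (standard error 0.04, edgeR adjusted p = 0.0005104). Between 9 min and 75 s, in libraries that this comparison does not use, it was −0.37 (edgeR adjusted p = 9.60e-05).

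JUN and EGR1, 2 immediate early transcription factors that usually rise together after a stimulus, were called in opposite directions. JUN (ENSG00000177606, chr1:58776845-58784048 on GRCh38, as are all positions below) was at 14.3, 14.6, 15.4, 13.9 and 15.6 CPM in libraries 76 to 80 and ranged from 17.8 to 22.1 CPM (median 21.2) at 3 min. The libraries at 15 min were lower without overlap, and the log2 fold change was −0.46 (standard error 0.08, edgeR adjusted p = 0.00412). EGR1 (ENSG00000120738, chr5:138465479-138469303) was at 10.7, 7.83, 8.45, 7.85 and 10.0 CPM in the same order, and ranged from 5.20 to 7.40 CPM (median 5.96) at 3 min. It was higher without overlap at 15 min, with a log2 fold change of 0.53 (standard error 0.12, edgeR adjusted p = 0.0247) at a low level. The EGR1 call was lost when library 70, 72, 76 or 80 was left out (edgeR adjusted p = 0.0585, 0.0599, 0.0696 and 0.06304). Of the 27 immediate early genes tested, among 32 listed, these were the 1 higher and the 1 lower call, beside 1.7% higher and 0.842% lower of all genes tested, and 7 had an unadjusted p-value under 0.05. The median over the list was 0.07, beside −0.01 over all genes. With all 9 g groups in 1 model edgeR also called FOSL2, NR4A1, BTG1 and ZFP36 higher (0.23, 0.25, 0.22 and 0.19), and with library 75 included on the chromosomes it covers FOSL2, all named after this was seen. None of 14 genes that feed back on MAP kinase signalling was called by edgeR or DESeq2, 2 had an unadjusted p-value under 0.05, and the median was −0.01. Their most abundant member DUSP2 had a log2 fold change of 0.09 (standard error 0.07).

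**Figure D2:**
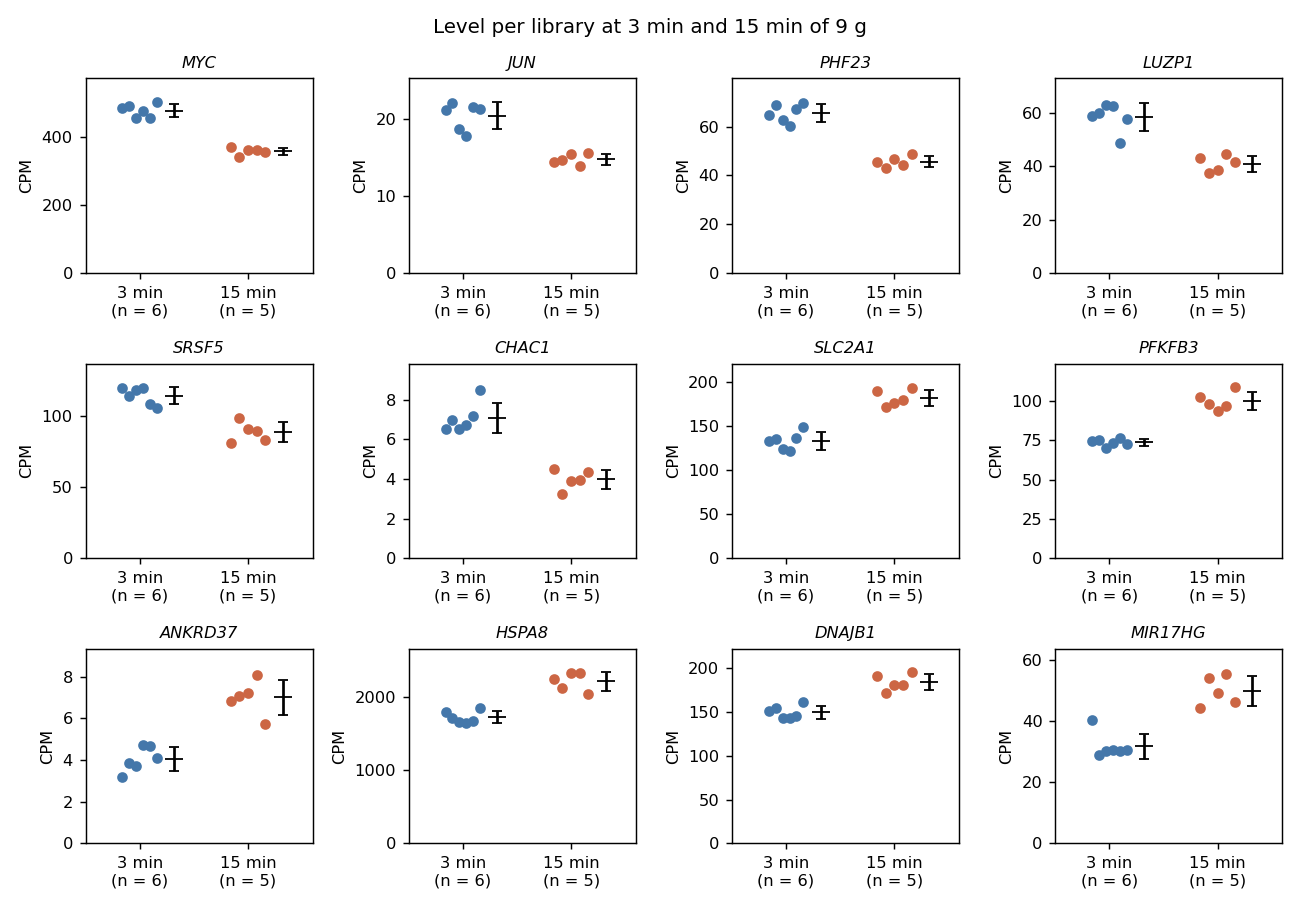
Level in CPM of 12 genes in each library at 3 min (blue, 6 libraries) and at 15 min (orange, 5 libraries), with the mean and SD of each group beside the points. The groups do not overlap for any of these 12 genes, which were drawn after their values were seen.

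Of the called genes that averaged 10 CPM or more and whose groups were fully apart, PFDN4 fell most, with a log2 fold change of −0.62 (standard error 0.12, edgeR adjusted p = 0.00971). It encodes a subunit of prefoldin, which hands unfolded actin and tubulin to a chaperonin, and measured 10.6, 8.05, 9.40, 12.2 and 8.24 CPM in libraries 76 to 80 against 12.4 to 17.0 CPM at 3 min. ZNF281, a zinc finger transcription factor gene, followed at −0.61 (standard error 0.12, edgeR adjusted p = 0.0118), with 9.81 to 14.3 CPM at 15 min and 16.3 to 24.5 CPM at 3 min. Its lowest value at 15 min was that of library 80.

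PHF23 encodes a PHD finger protein that binds methylated histone H3. PHF23 (ENSG00000040633, chr17:7235029-7239722) was at 45.3, 42.9, 46.6, 44.1 and 48.9 CPM in libraries 76 to 80 and ranged from 60.3 to 69.8 CPM (median 66.0) at 3 min. Its libraries were tightly grouped at both times, and the change was −0.53 (standard error 0.05, edgeR adjusted p = 0.0005104). LUZP1, a leucine zipper protein gene tied to actin and the centrosome, was at 43.3, 37.4, 38.5, 44.5 and 41.5 CPM at 15 min and ranged from 48.6 to 63.2 CPM (median 59.4) at 3 min. Library 73 was the lowest of the 3 min libraries for LUZP1 and still lay above those of 15 min (log2 fold change −0.51, standard error 0.07, edgeR adjusted p = 0.00129).

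The rest of the 10 largest decreases at 10 CPM or more without overlap were FAM133B, RBIS, P2RY11, KBTBD7, RYBP and RSL24D1, with log2 fold changes from −0.55 to −0.47. RBIS and RSL24D1 encode factors of ribosome assembly, P2RY11 a receptor for extracellular ATP, KBTBD7 an adaptor of a ubiquitin ligase and RYBP a subunit of a Polycomb complex. P2RY11 was at 11.8 to 14.0 CPM at 15 min and 16.4 to 19.0 CPM at 3 min, with an SD under 1 CPM in both groups. RYBP was the weakest of them, at −0.47 (edgeR adjusted p = 0.0442), and its call was lost in 10 of the 11 fits that left out 1 library, all but that without library 73 (edgeR adjusted p from 0.0524 to 0.108). RYBP was also not called with total counts as the scale (edgeR adjusted p = 0.0683), with all 9 g groups in 1 model (0.0676) or with the thinned counts (0.0513). FAM133B was not called with total counts as the scale (edgeR adjusted p = 0.0561) or without library 71, 72, 76, 78, 79 or 80 (from 0.0534 to 0.0775), and RBIS was not called with the GC correction (0.17003).

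SLC2A1, the glucose transporter GLUT1 of most dividing cells, was the gene with the highest level among the 10 largest increases without overlap of genes with a symbol and 10 CPM or more on average. SLC2A1 (ENSG00000117394, chr1:42925353-42958893) was at 189, 172, 177, 179 and 194 CPM in libraries 76 to 80 and ranged from 121 to 149 CPM (median 134) at 3 min. The lowest library of 15 min exceeded the highest of 3 min, and the log2 fold change was 0.45 (standard error 0.06, edgeR adjusted p = 0.000718). It was the 1 call among 19 genes from glucose uptake to lactate, beside 1.7% higher of all genes tested, and their median was 0.00. GAPDH, the glycolytic enzyme often used as a reference, was at 6729.7 ± 591 CPM at 15 min (SD, n = 5) and 6828 ± 460.2 CPM at 3 min (SD, n = 6), with a log2 fold change of −0.02 (standard error 0.08).

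PFKFB3 makes fructose 2,6-bisphosphate, the activator of the committed step of glycolysis. This gene, chosen after its values were seen, was at 103, 98.4, 93.6, 97.1 and 109 CPM in libraries 76 to 80 and ranged from 70.4 to 76.7 CPM (median 73.9) at 3 min. The log2 fold change of PFKFB3 was 0.44 (standard error 0.05, edgeR adjusted p = 0.0005104). ANKRD37, a target of hypoxia inducible factor, was the 1 call among 20 hypoxia response genes, beside 1.7% higher of all genes tested. The median of these 20 genes was −0.05. ANKRD37 rose from a mean of 4.04 ± 0.587 CPM at 3 min (SD, n = 6) to 7.01 ± 0.846 CPM at 15 min (SD, n = 5), with a log2 fold change of 0.80 (standard error 0.12, edgeR adjusted p = 0.00212). Library 80 was the lowest of 15 min for ANKRD37 and lay above all libraries of 3 min.

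Of 28 genes of the ATF4 and unfolded protein responses, VLDLR was the 1 called higher and CHAC1 the 1 called lower, and the median was −0.02. Over all genes tested these calls made up 1.7% and 0.842%. VLDLR, a lipoprotein receptor, was at 16.8, 17.6, 16.6, 17.8 and 17.5 CPM in libraries 76 to 80 and ranged from 12.4 to 14.3 CPM (median 13.5) at 3 min (log2 fold change 0.37, standard error 0.07, edgeR adjusted p = 0.00797). CHAC1, induced by ATF4, was at 4.50, 3.26, 3.91, 3.97 and 4.34 CPM in the same order and ranged from 6.49 to 8.50 CPM (median 6.84) at 3 min, where library 74 stood above the other 5. Its change was −0.82 (standard error 0.11, edgeR adjusted p = 0.001004). None of 19 NRF2 antioxidant genes (median −0.05, most abundant member TKT at 0.00) and none of 16 BCL2 family genes (median −0.04, most abundant member BCL2L1 at −0.08) was called by edgeR or DESeq2, and 1 and 2 of them had an unadjusted p-value under 0.05. After correction for GC content edgeR called BCL2L1, which encodes an inhibitor of apoptosis, lower at −0.13 (edgeR adjusted p = 0.0311), and also ATF4, named after this was seen, at −0.16 (edgeR adjusted p = 0.0288). With total counts as the scale it called the chaperone gene HSPA5 of the unfolded protein list higher, likewise named after this was seen.

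Heat-inducible chaperones were the list with the most calls in 1 direction after the small nucleolar RNAs. Of 22 genes tested among 23 listed, 4 were higher, beside 1.7% of all genes tested, 0 were lower and 18 were not called, and the median was −0.00, beside −0.01 over all genes. HSPA1B encodes the inducible Hsp70, HSPA8 its constitutive relative Hsc70, DNAJB1 their Hsp40 partner and SERPINH1 the collagen chaperone Hsp47. HSPA1B has a near-identical copy, HSPA1A, with which reads can be shared, so its value is uncertain in this respect. HSPA1A itself had a mean of 0.353 CPM and a log2 fold change of 0.23 (standard error 0.30).

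Because these genes share HSF1 as a known regulator and 4 of them rose, their upstream stretches were searched for the paired repeats of the heat shock element. The motifs were GAANNTTC and TTCNNGAA, each of which reads the same on both strands, and matches of both can overlap. In the 250 bases before the start that RefSeq gives (GRCh38.p14), GAANNTTC was found in 5.78%, TTCNNGAA in 6.62% and either in 11.6% of 35116 promoters of this length. For each chaperone only the first start listed under its symbol was searched. For HSP90AA1 this gave chr14:102139750-102139999. A chaperone counted without a match may therefore have matches before another of its starts. A match to either was found for 3 of the 4 chaperones called higher, HSPA1B, HSPA8 and SERPINH1, and for 5 of the 17 uncalled chaperones in the RefSeq table. Both groups were formed by the calls in these same data, so these counts are a description and were not tested. Exons of the deposited annotation, which starts these genes earlier, cover all 250 bases of this stretch for HSPA8 and DNAJB1 and 197 for SERPINH1. The windows of HSPA8 and SERPINH1 thus lie wholly or mostly within the gene as counted, and the letters of such stretches are not shown. Stretches of some uncalled chaperones hold such exons as well. The stretch of HSPA1B holds no such exon, so it lies wholly before the gene in both annotations, and it is given on the plus strand with the match to GAANNTTC in capitals (chr6:31827488-31827737).
HSPA1B: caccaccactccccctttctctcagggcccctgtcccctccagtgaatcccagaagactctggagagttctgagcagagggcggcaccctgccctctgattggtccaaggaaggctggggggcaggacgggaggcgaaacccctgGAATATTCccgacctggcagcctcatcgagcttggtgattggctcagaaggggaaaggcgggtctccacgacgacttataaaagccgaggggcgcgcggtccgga
A match describes letters in a window and was not tied to binding of a factor here.

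HSPA1B was at 17.4, 16.1, 18.9, 15.6 and 17.6 CPM in libraries 76 to 80 and ranged from 11.9 to 13.5 CPM (median 12.8) at 3 min. Its groups did not overlap, and the change was 0.43 (standard error 0.08, edgeR adjusted p = 0.00658). HSPA8, chosen after its values were seen, was at 2237, 2115, 2318, 2329 and 2037 CPM in the same order and ranged from 1638 to 1845 CPM (median 1689.8) at 3 min. Library 80 was the lowest at 15 min and still exceeded every library of 3 min, and the change of HSPA8 was 0.36 (standard error 0.06, edgeR adjusted p = 0.00381). DNAJB1, chosen in the same way, was at 191, 172, 181, 181 and 196 CPM and ranged from 143 to 161 CPM (median 148) at 3 min. Its change was 0.30 (standard error 0.05, edgeR adjusted p = 0.00374), while between 9 min and 75 s it was −0.11. SERPINH1 was at 15.5, 13.4, 12.9, 14.0 and 16.2 CPM against 10.1 to 11.8 CPM at 3 min (log2 fold change 0.37, standard error 0.08, edgeR adjusted p = 0.0233), and the call was lost when library 72, 76, 79 or 80 was left out (edgeR adjusted p = 0.0567, 0.0658, 0.0524 and 0.0554).

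HSP90AA1, which encodes inducible Hsp90 alpha, was not called. HSP90AA1 was at 344, 328, 415, 375 and 323 CPM in libraries 76 to 80 and ranged from 251 to 458 CPM (median 371) at 3 min, so that all libraries of 15 min lay inside the range of 3 min. Its log2 fold change was −0.08 (standard error 0.12, edgeR adjusted p = 0.778). HSPD1, HSPH1 and HSP90AB1 had estimates of 0.05, −0.02 and −0.02. A p-value above the threshold does not show that the 18 uncalled chaperones kept their level.

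None of 33 genes of the T cell receptor complex (median −0.03, LCK 0.00), 19 genes of the NF-kB pathway (−0.02, RELA 0.02), 22 T-lineage transcription factors (−0.03, TCF7 −0.01) and 32 genes of calcium entry, NFAT and mechanosensitive channels (−0.00, ATP2A3 0.08) was called by edgeR. The same was true of 45 actin cytoskeleton genes (median −0.05, ACTB 0.11), 10 lymphocyte integrins (−0.04, ITGB2 0.01), 19 genes of the nuclear lamina and its cytoskeletal linkers (−0.06, LMNB2 −0.06) and 27 interferon-stimulated genes (−0.00, IRF1 −0.13). The gene in brackets is the most abundant member of each list. Unadjusted p-values under 0.05 were found for 2, 1, 2 and 3 members of the first 4 lists and for 3, 0, 3 and 4 of the other 4, beside 2688 of all 15915 genes. DESeq2 called RAG1, of the T-lineage list, at −0.38, and LRRC8A, a volume-regulated channel gene of the calcium and channel list, both lower and the latter named after this was seen, and no other member of these 8 lists. The GC correction added calls by edgeR for RAG1 (−0.34, edgeR adjusted p = 0.0438), LRRC8A (−0.25, 0.00206), the actin regulator gene VASP (−0.17, 0.0358) and the transcription factor gene IRF1 (−0.18, 0.00305), each lower and LRRC8A and VASP named after this was seen. With total counts as the scale it called LRRC8A and IRF1 lower, without the filter on low counts RAG1, and with all 9 g groups in 1 model LRRC8A.

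Lists of gene expression and replication held 1 call each, beside 1.7% higher and 0.842% lower of all genes tested. SRSF5, a splicing factor whose own message is regulated by splicing, was the 1 call among 26 SR proteins and their kinases (median −0.05). SRSF5 was at 80.6, 98.5, 90.7, 89.1 and 82.8 CPM in libraries 76 to 80 and ranged from 105 to 119 CPM (median 116) at 3 min, lower without overlap (log2 fold change −0.37, standard error 0.06, edgeR adjusted p = 0.00283). POLR2K, a small subunit shared by RNA polymerases, was the 1 call among 42 genes of polymerase II and elongation (median −0.05), at −0.44 (standard error 0.10, edgeR adjusted p = 0.0215). ORC6, a subunit of the origin recognition complex, was the 1 call among 43 replication genes (median −0.02), at −0.36 (standard error 0.08, edgeR adjusted p = 0.0215). EIF4A2, an RNA helicase of translation initiation, rose by 0.29 (standard error 0.05, edgeR adjusted p = 0.0101) and was the 1 call among 45 translation factors (median −0.03). POLR2K was not called with the GC correction (edgeR adjusted p = 0.508) or without library 71, 72 or 76 (from 0.0512 to 0.0554), and ORC6 not without library 72, 76 or 79 (from 0.0513 to 0.0628). Called lower by edgeR with that correction were 3 other genes of the polymerase list, CDK12, HEXIM1 and ELL, and HEXIM1 was also called by DESeq2. Of the replication list it then called ORC2 higher and CDC6 and GINS3 lower beside ORC6, and with total counts as the scale CDC6 and GINS3. These 6 genes were named after this was seen.

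Of 80 cytosolic ribosomal protein genes, RPS10 was called higher at 0.36 (edgeR adjusted p = 0.0341) and RPL34 lower at −0.33 (edgeR adjusted p = 0.0495), and the median was −0.05. Over all genes tested, 1.7% were called higher and 0.842% lower. The groups of RPL34 overlap, with 146 to 186 CPM at 15 min and 172 to 236 CPM at 3 min. RPS10 was at 6.71 to 7.93 CPM at 15 min and 5.13 to 6.19 CPM at 3 min. Ribosomal protein genes have many near-identical copies, so both values are uncertain, and the calls were lost in 9 and 10 of the 11 fits that left out 1 library. For RPS10 these were the fits without library 70, 71, 72, 73, 74, 76, 77, 78 or 79 (edgeR adjusted p from 0.0558 to 0.0987), and for RPL34 all but that without library 73 (from 0.0553 to 0.1203). RPS10 was also not called without the filter on low counts (edgeR adjusted p = 0.101), and RPL34 not with the GC correction (0.0601), with edgeR's RLE size factors in place of TMM (0.0566) or with the thinned counts (0.0513). RPS27, named after this was seen, was called lower with the GC correction.

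No gene was called by edgeR among 77 mitochondrial ribosomal proteins (median −0.01, MRPL37 0.02), 79 nuclear genes of oxidative phosphorylation (−0.02, ATP5F1B −0.02), 38 proteasome subunits (−0.02, PSMD2 0.00), 41 RNA decay factors (−0.02, CNOT1 0.04), 31 nuclear pore proteins (−0.00, NUP210 0.01) and 33 aminoacyl-tRNA synthetases (0.02, IARS1 0.06). Unadjusted p-values under 0.05 were found for 12, 9, 1, 6, 3 and 2 members of these 6 lists, and DESeq2 called 3 RNA decay genes, CNOT2, CNOT4 and DCP1A, lower, named after this was seen, and no other member. When GC content was taken out edgeR called the same 3 RNA decay genes lower, and of the nuclear pore list NUP133, NUP155 and NUP160 higher and NUP62 lower. With total counts as the scale it called NUP62 lower. These 4 were likewise named after this was seen, and neither of these 2 settings gave a call in the other 4 lists.

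Some lists without a call by edgeR had medians away from that of all genes. The 2 ribosomal RNAs of the mitochondrial genome, outside these lists, had a median of −0.86 without a call, and of −1.33 between 9 min and 75 s. All 13 protein-coding genes of the mitochondrial genome had positive estimates with a median of 0.20, and between 9 min and 75 s their median was −0.07. Their median deviation from the 3 min mean ran from −0.09 to 0.66 over the libraries of 15 min, and library 77 was the highest, while those of 3 min ran from −0.21 to 0.23. MT-CO1, which encodes a subunit of cytochrome oxidase, was at 3601, 6007, 3523, 4408 and 4336 CPM in libraries 76 to 80 and ranged from 3239.6 to 4642 CPM (median 3973) at 3 min, and 1 of the 5 libraries lay above all of 3 min. With all 9 g groups in 1 model edgeR called MT-ND4, MT-ND4L and MT-ND5 higher, and without the filter on low counts MT-ND5, all named after this was seen. The 62 kinesin, centromere and spindle genes had a median of −0.18 (CDC20 0.04) and the 24 genes of cohesin, condensin and CTCF one of −0.16 (NCAPD2 0.02), with median GC contents of 42.1% and 40.3%. Their median deviations from the 3 min mean overlapped between the groups: those of the spindle list ran from −0.37 to −0.03 at 15 min and from −0.09 to 0.21 at 3 min, and those of the cohesin list from −0.34 to 0.05 and from −0.26 to 0.34. Library 80 was the lowest at 15 min and library 71 the highest at 3 min for both lists. Between 9 min and 75 s the medians had the opposite sign, 0.05 and 0.13. With the GC correction these medians were −0.11 and −0.05, and edgeR then called the spindle genes CENPE, CENPO, AURKA and CDCA8 lower and no gene of the other list. These 4 were named after their values were seen. The 60 replication-dependent histone genes had a median of −0.10 (H1-5 0.00), and the 173 zinc finger genes of chromosome 19 one of −0.07 (ZNF317 −0.15), with no call by edgeR. With the correction for GC content, edgeR called the histone genes H2AC15, H3C12, H3C13 and H4C12 lower, and of the zinc finger genes ZNF43 and ZNF628 higher and ZNF175, ZNF317 (−0.18, edgeR adjusted p = 0.00897), ZNF584, ZNF8 and ZNF837 lower. ZNF317 was also called with total counts as the scale (edgeR adjusted p = 0.0495), with all 9 g groups in 1 model (0.0173), with library 75 included on the chromosomes it covers (0.0289) and without library 80 (0.0401). All of these but ZNF317 were named after this was seen. In the order given, 4, 21, 0, 11 and 20 members of these 5 lists had an unadjusted p-value under 0.05, and DESeq2 called CENPQ and ZNF175 lower and ZNF628 higher, named after this was seen, and no other member.

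Small nucleolar RNAs, which guide the modification of ribosomal RNA and are cut out of introns, had the highest median of the 38 lists. Of 469 listed, 99 passed the filter and 6 were higher, beside 1.7% of all genes tested and 4.98% of all noncoding genes and pseudogenes. None was lower by edgeR or DESeq2 without a correction for exon length, 33 had an unadjusted p-value under 0.05, 90 had a positive estimate, and the median log2 fold change was 0.26. The median deviation of the list from the 3 min mean was 0.09, 0.21, 0.18, 0.19 and 0.31 in libraries 76 to 80, and ran from −0.07 to 0.11 at 3 min. Library 76 thus lay inside the range of 3 min, and the other 4 above it. Between 9 min and 75 s the list had a median of −0.03, with 1 member higher and 11 lower. The number of higher members was 4 with exon length taken out, 5 with the thinned counts, 5 with library 75 included on the chromosomes it covers, where 69 were tested, 6 with edgeR's RLE size factors, 7 with total counts as the scale, 8 without the filter on low counts, 9 with the GC correction, 9 with DESeq2 and 12 with all 9 g groups in 1 model. With exon length taken out SNORD89, named after this was seen, was called lower at −0.98 (edgeR adjusted p = 0.0384).

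SNORD14E lies inside HSPA8, on the same strand (chr11:123058077-123058161), and was at 2.04, 3.37, 2.80, 2.56 and 3.54 CPM in libraries 76 to 80 against 0.834 to 1.38 CPM at 3 min. Its log2 fold change was 1.41 (standard error 0.17, edgeR adjusted p = 0.000723), so that RNA counted inside this chaperone gene was higher together with its message, and reads of the small RNA and of unspliced HSPA8 RNA cannot be told apart. SNORD99 lies inside SNHG12 (chr1:28578749-28578822) and rose by 0.87 (standard error 0.17, edgeR adjusted p = 0.0131). The SNORD99 call was lost with exon length taken out (edgeR adjusted p = 0.0624) and with the thinned counts (0.07001). The host gene SNHG12 was at 41.7, 44.0, 43.3, 43.0 and 46.0 CPM and ranged from 31.5 to 37.0 CPM (median 34.1) at 3 min, without overlap (log2 fold change 0.36, standard error 0.06, edgeR adjusted p = 0.00347). SNORD3B-1 and SNORD3B-2, near-identical copies of the U3 RNA of ribosomal RNA processing, rose by 0.48 and 0.53, and reads may be shared between them. SNORA71B and SNORA73B completed the 6, at 0.53 and 0.25, named after their values were seen. The SNORA73B call was lost with exon length taken out (edgeR adjusted p = 0.375), with all 9 g groups in 1 model (0.176), with library 75 included on the chromosomes it covers (0.0538) and in 10 of the 11 fits that left out 1 library, all but that without library 76 (from 0.0524 to 0.108).

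Of 28 noncoding host genes of small nucleolar RNAs, 3 were higher, beside 1.7% of all genes tested and 4.98% of all noncoding genes and pseudogenes, and 0 lower, with a median of 0.13. Besides SNHG12 these were SNHG25, at 0.40 (standard error 0.09, edgeR adjusted p = 0.0269), and SNHG17, at 0.24 (standard error 0.06, edgeR adjusted p = 0.0292), the latter named after its values were seen. Library 80 was the highest for both, and without it neither was called (edgeR adjusted p = 0.0592 and 0.0582). SNHG25 lost its call when library 70, 71, 72, 76, 77, 79 or 80 was left out (from 0.05001 to 0.0659), and SNHG17 when library 70, 71, 72, 73, 76, 79 or 80 was (from 0.0521 to 0.0776). Both calls were also lost with exon length taken out, where the estimate of SNHG25 was smaller, 0.25 (edgeR adjusted p = 0.113), and that of SNHG17 larger, 0.28 (edgeR adjusted p = 0.0676). The call of SNHG25 was lost as well with the thinned counts (0.0519). SNHG3, SNHG20 and SNHG26, named after this was seen, were called higher by DESeq2 and by edgeR with the GC correction. RNU6-2, a copy of the U6 RNA of the spliceosome, was the 1 call among 14 spliceosomal RNAs (median 0.19) at 0.54 (standard error 0.11, edgeR adjusted p = 0.01397), from a level of 1.66 to 2.17 CPM at 3 min, and U6 has many near-identical copies. This 1 call stands beside 1.7% higher of all genes tested and 4.98% of all noncoding genes and pseudogenes. Between 9 min and 75 s the 14 spliceosomal RNAs had a median of −0.49, with 0 higher and 6 lower. The RNU6-2 call was lost with exon length taken out (edgeR adjusted p = 0.0993) and with the thinned counts (0.0718). RNU6-8, another U6 copy named after this was seen, was called higher by DESeq2 and by edgeR with the GC correction. Of the calls named here, the 5 lost with exon length taken out were those of SNORD99, SNORA73B, SNHG25, SNHG17 and RNU6-2, and the estimates were then 0.67, 0.09, 0.25, 0.28 and 0.35, smaller than before for all but SNHG17. None of 5 other small RNAs of RNA polymerase III was called by edgeR or DESeq2, 2 had an unadjusted p-value under 0.05, and the median was 0.05. Among them was RN7SL1, the RNA of the signal recognition particle, which alone held 70294 ± 12020.2 CPM at 15 min (SD, n = 5) and 57032 ± 4693 CPM at 3 min (SD, n = 6). Its log2 fold change was 0.30 (standard error 0.12, edgeR adjusted p = 0.226), and 4 of the 5 libraries of 15 min lay above all of 3 min. Library 80 was the highest, at 90765 CPM, and the estimate ran from 0.19 to 0.35 over the fits that left out 1 library. Between 9 min and 75 s the median of these 5 small RNAs was −1.40, with 0 higher and 3 lower.

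MIR17HG, the host gene of the miR-17-92 microRNA cluster, was the 1 call among 14 nuclear long noncoding RNAs (median 0.00). Higher calls made up 1.7% of all genes tested and 4.98% of all noncoding genes and pseudogenes. MIR17HG (ENSG00000215417, chr13:91347820-91354579) was at 44.5, 54.1, 49.3, 55.5 and 46.1 CPM in libraries 76 to 80 and ranged from 29.1 to 40.3 CPM (median 30.3) at 3 min. Library 69 stood apart from the other 5 of 3 min and still lay below those of 15 min, and the log2 fold change was 0.65 (standard error 0.09, edgeR adjusted p = 0.001099). MIR9-1HG, the host of another microRNA, rose by 0.48 (standard error 0.09, edgeR adjusted p = 0.0118). RENO1 and LINC00235, further long noncoding RNAs, rose by 0.69 and 0.50, and ZKSCAN2-DT, transcribed away from the start of ZKSCAN2, by 0.53. The protein-coding genes C1QTNF6, for a secreted protein with a C1q domain, and SLC23A1, for a vitamin C transporter, completed the 10 largest such increases, with 0.62 and 0.61.

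Noncoding genes and pseudogenes as a whole had 181 higher and 4 lower calls among 3632 tested, which is 4.98% higher, beside 0.662% of 12093 protein-coding genes. Their median log2 fold change was 0.11, against −0.03 for protein-coding genes, and 2381 of the 3632 had a positive estimate. Their median level was 1.20 CPM. By type, 65 of 1060 antisense genes, 52 of 770 intergenic long noncoding genes, 17 of 185 TEC genes (transcripts listed as still to be experimentally checked), 11 of 172 processed transcripts and 7 of 229 genes inside introns on the same strand were higher. Of 390 processed pseudogenes 6 were higher (1.54%, beside 1.7% of all genes tested) and 2 lower, with a median of −0.09. Of 219 transcribed unprocessed pseudogenes 2 were higher, and of 83 other unprocessed pseudogenes 0. The 4 lower genes were the noncoding FRG1-DT and TEDC2-AS1 and the pseudogenes HNRNPA3P6 and YBX1P1, and HNRNPA3P6, at −1.09, was the 1 gene lower with an absolute log2 fold change above 1. The HNRNPA3P6 call was lost when library 76, 77, 78, 79 or 80 was left out (edgeR adjusted p from 0.05003 to 0.0841), without the filter on low counts (0.0858) and with DESeq2 (DESeq2 adjusted p = 0.0894). FRG1-DT was not called without library 72, 76, 78, 79 or 80 (edgeR adjusted p from 0.0501 to 0.0613) and YBX1P1 not without library 69, 71, 72, 74, 77, 78, 79 or 80 (from 0.06601 to 0.0976). TEDC2-AS1 was called in 1 of the 11 fits that left out 1 library, that without library 73 (edgeR adjusted p in the others from 0.0584 to 0.102). The 4 lower genes were named after their values were seen.

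Position beside protein-coding genes was recorded for each noncoding gene. The limit that the filter on low counts sets holds here too, so these shares are a description. Of 940 noncoding genes that start within 1000 bases of the start of a protein-coding gene on the other strand, 70 were higher (7.45%) and 1 lower, with a median of 0.16. Of 410 that begin within 10000 bases after the end of a protein-coding gene on the same strand, 24 were higher (5.85%) and 0 lower, with a median of 0.15. Of 826 that lie within or across a gene on the same strand, 32 were higher (3.87%), with a median of 0.18, and of 526 across a gene on the other strand 18 were higher (3.42%) and 1 lower, with a median of 0.08. Those apart from protein-coding genes were 930, with 37 higher (3.98%), 2 lower and a median of 0.02. With the GC correction these 5 medians were 0.15, 0.13, 0.18, 0.06 and 0.00.

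The 47 genes that were higher with a log2 fold change above 1 comprised 38 noncoding genes and pseudogenes and 9 protein-coding genes. Some of them passed the filter on low counts only through the libraries of 15 min, such as YPEL3-DT with a mean of 0.159 CPM at 3 min. Their numbers by type and position are therefore given as a description. Of the 38, 13 lie after the end of a protein-coding gene on the same strand, more than in any of the other 4 positions, where counts were 5 to 8. RN7SL472P, named after its values were seen, had the largest log2 fold change of the 271 higher genes. With a mean of 0.195 CPM at 3 min, it too passed the filter only through the libraries of the longer exposure. Its first place among the higher genes is therefore likewise a description. RN7SL472P is a pseudogene of the signal recognition particle RNA. It lies at chr14:102077180-102077472 on the minus strand, after the end of HSP90AA1 (chr14:102080742-102139699, minus strand). RN7SL472P was at 0.908, 1.13, 1.18, 1.11 and 1.45 CPM in libraries 76 to 80 and ranged from 0.0618 to 0.417 CPM (median 0.146) at 3 min, with a log2 fold change of 2.58 (standard error 0.33, edgeR adjusted p = 0.000895). It is near-identical to other 7SL copies, and its reads may belong elsewhere. PRR29-AS1 and YPEL3-DT, also named after their values were seen, rose by 1.65 and 1.83 from means of 0.371 and 0.159 CPM at 3 min.

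The 9 protein-coding genes, named after their values were seen, were RAB20, C19orf67, LRRN4CL, HSPB6, COLEC11, TMEM249, ATP6V1FNB, P4HTM and RNF225. RAB20 encodes a small GTPase of endosomes, HSPB6 a small heat shock protein and P4HTM a prolyl hydroxylase of the endoplasmic reticulum. Their log2 fold changes ran from 1.07 (RNF225) to 1.53 (RAB20). Levels were low throughout, with means at 15 min between 0.686 CPM for C19orf67 and 5.16 CPM, the latter for ATP6V1FNB. Calls were lost for HSPB6 without library 70, 71, 72, 76, 77 or 80 (edgeR adjusted p from 0.0538 to 0.0749), for C19orf67 without library 70, 71, 72, 76, 77, 79 or 80 (from 0.0553 to 0.0822) and for TMEM249 without library 69, 70, 72, 74, 76, 77 or 80 (from 0.0536 to 0.0924) or with the thinned counts (0.0716).

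**Figure D3:**
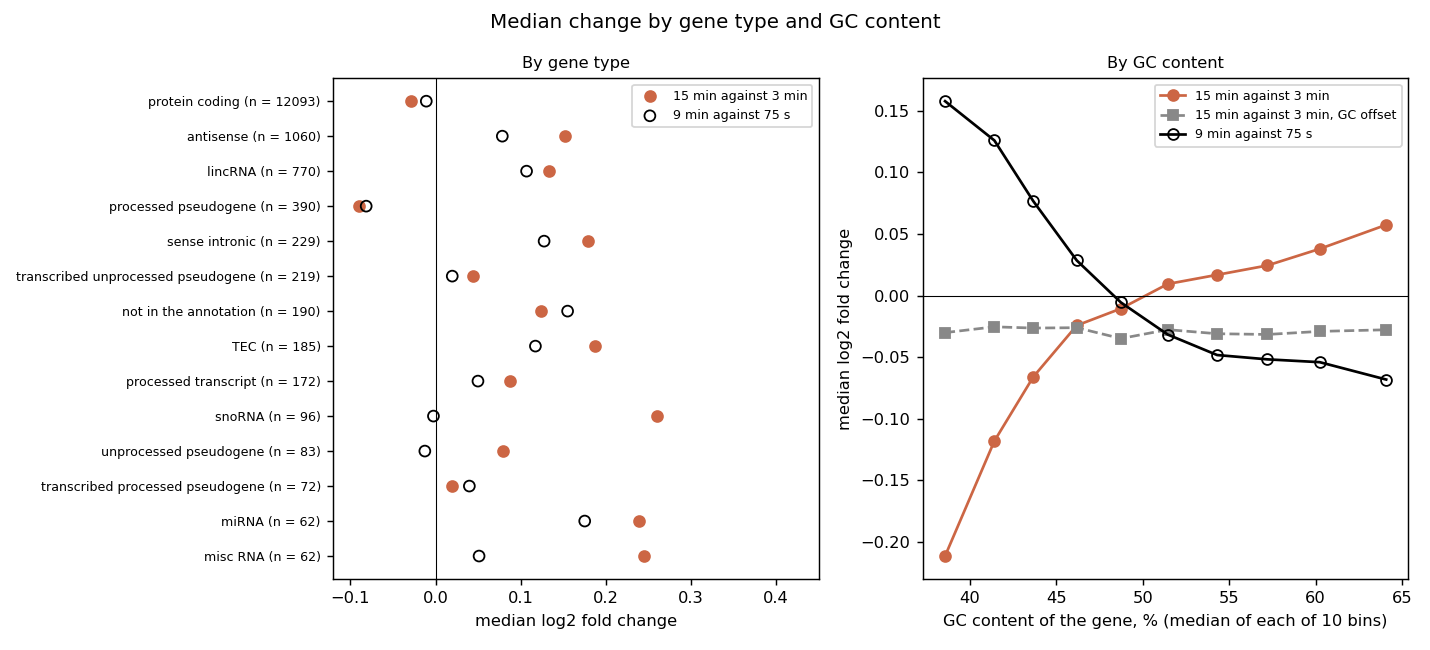
Median log2 fold change by gene type (left, types with at least 60 genes tested, numbers are those of 15 min against 3 min) and by bins of GC content (right, 10 bins of 1571 or 1572 genes) for 15 min against 3 min, for the same after the GC correction (right) and for 9 min against 75 s. Small nucleolar RNAs have the highest median of the types drawn for 15 min against 3 min, and the trends with GC content run in opposite directions in the 2 pairs of times.

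Base composition moved with the result. From the lowest to the highest of 10 bins of GC content, with median contents of 38.6% and 64.1%, the median log2 fold change went from −0.21 to 0.06. Between 9 min and 75 s the same medians were 0.16 and −0.07, the opposite order. Gene length moved as well: of the 1592 genes with the shortest span 69 were higher and 2 lower, and of the 1592 with the longest span 4 were higher and 14 lower. By level, 25 genes were higher and 1 lower in the lowest of 10 bins of mean CPM. Higher calls were most frequent in the fourth bin, with 58 higher and 11 lower, and lower calls in the eighth bin, with 12 and 28, and in the highest bin there were 8 and 15. With exon length taken out in place of GC content, 262 genes were higher and 136 lower. Beyond these corrections and the thinning, the part of composition, length and level in the calls was not tested.

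For 5 measures of the libraries, the difference of means was set against all 462 ways to assign 11 libraries to 5 and 6, as an exact permutation test with both sides counted and adjustment over the 5. Total counts had a mean of 24750519 at 15 min and 30660584 at 3 min (p = 0.0195 in the exact permutation test, adjusted p = 0.0487). The share of counts in the 10 most abundant genes was 12.5% ± 1.00 at 15 min (SD, n = 5) and 11.1% ± 0.468 at 3 min (SD, n = 6), without overlap (exact permutation test, p = 0.00216, the smallest that these numbers of libraries allow, adjusted p = 0.0108). Genes with at least 10 counts numbered 15777 on average at 15 min and 16189 at 3 min (exact permutation test, adjusted p = 0.144). The mean GC content weighted by counts was 54.0% and 53.7%, and the exon length weighted in the same way 5685 and 5783 bases (exact permutation tests, adjusted p = 0.234 for each). Library 80 had the highest share in the 10 most abundant genes, 14.2%, and the highest GC content, 54.6%.

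The same direction was then looked for in libraries of other groups, 6 of 9 min (hypg9) and 6 of 75 s (hypg75s), which share no library with the comparison above. Of 16319 genes tested there, 816 were called by edgeR (5%), 287 higher (1.76%) and 529 lower (3.24%) at 9 min. The split turned with the GC correction, to 436 higher and 394 lower. Of the 402 genes called between 15 min and 3 min that were tested in both, 354 or 88.1% had the same sign at 9 min against 75 s, beside 50.5% of all 15812 genes tested in both. By direction these were 237 of 268 higher genes and 117 of 134 lower genes. Called there with the same sign were 105, and 1 was called with the opposite sign, SNORA73B, named after its values were seen. With the GC correction in both, 774 of 888 called genes had the same sign, beside 59.5% of all genes.

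**Figure D4:**
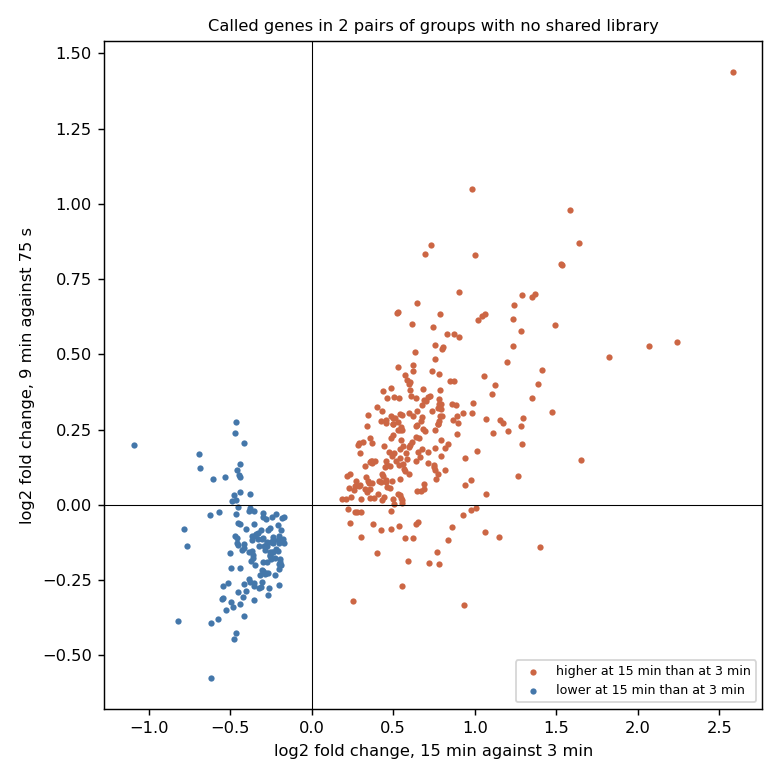
Log2 fold change at 9 min against 75 s (vertical axis) against that at 15 min against 3 min (horizontal axis) for the 402 genes called in the latter and tested in both. Of these, 354 lie in the upper right or lower left quadrant, and the median on the vertical axis is 0.22 for the higher and −0.14 for the lower genes.

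Medians were smaller in size in that pair of times. The median over the called higher genes was 0.63 between 15 min and 3 min and 0.22 between 9 min and 75 s, and over the called lower genes −0.36 and −0.14. The first of each pair of medians is raised in size by the choice of genes on it. PHF23 had −0.53 and −0.35, JUN −0.46 and −0.43, SLC2A1 0.45 and 0.27 and EGR1 0.53 and 0.46, each called in both. HSPA8 had 0.36 and 0.14, HSPA1B 0.43 and −0.08, and MIR17HG 0.65 and 0.18, none of which was called at 9 min against 75 s.

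A test of the difference between both changes called 29 of 17056 genes (0.17%), 20 with a positive (0.117%) and 9 with a negative difference (0.0528%), of 2813 with an unadjusted p-value under 0.05. With the GC correction 109 were called, 42 positive and 67 negative, and with total counts as the scale 13, 9 positive and 4 negative. Of the genes examined singly 4 were among them. For DNAJB1 the difference was 0.41 (edgeR adjusted p = 0.01201) and for PFKFB3 0.24 (edgeR adjusted p = 0.0482). For RSL24D1 it was −0.75 (edgeR adjusted p = 0.0296) and for KBTBD7 −0.51 (edgeR adjusted p = 0.0486). DNAJB1 was called with the GC correction and with total counts as well (edgeR adjusted p = 0.000381 and 0.000124), and PFKFB3 with neither (0.3697 and 0.0868). RSL24D1 was not called with the GC correction (0.052999) and KBTBD7 not with total counts (0.0879). The GC correction also brought calls of the difference for PHF23, ZNF281, CHAC1, MIR17HG, LINC00235 and SNHG25. For MYC the difference was −0.05 (edgeR adjusted p = 0.668), which was not called.

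**Figure D5:**
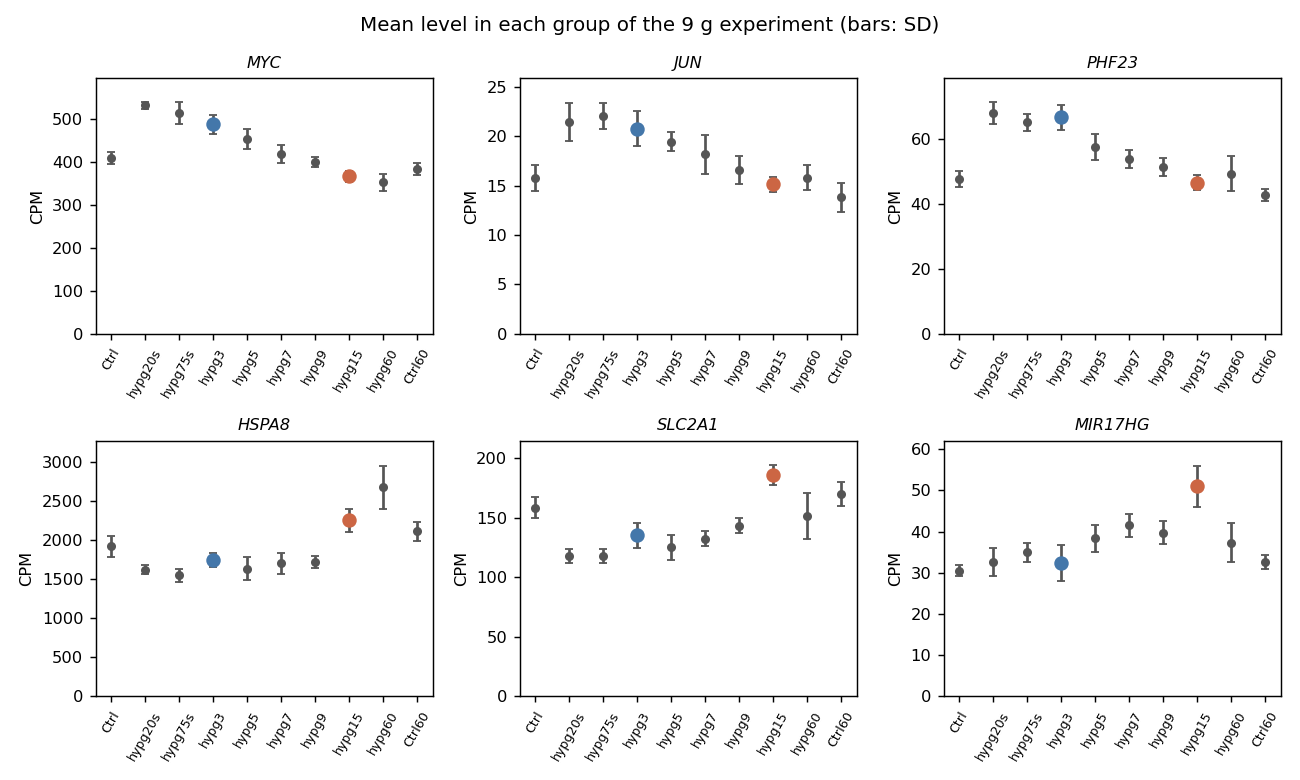
Mean level in CPM of 6 genes in each group of the 9 g experiment, with the SD as bars (5 libraries in hypg15, 6 in every other group), hypg3 in blue and hypg15 in orange, and hypg60 and Ctrl60 held for 60 min in all (Ctrl60 with HEPES in its column names). MYC, JUN and PHF23 are lower in hypg15 than in hypg3, and HSPA8, SLC2A1 and MIR17HG higher, and the genes were drawn after their values were seen.

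Levels over all groups of the 9 g experiment were scaled over its 59 libraries other than library 75, so they differ slightly from those of the 11 libraries above. They are given as a description, since hypg3 and hypg15 carry other library numbers than the rest and a difference from them cannot be told apart from that between library numbers. MYC had a mean of 409 ± 13.7 CPM in the control held 15 min at 1 g (SD, n = 6), 532 ± 8.26 in hypg20s, 487 ± 22.5 in hypg3, 399.6 ± 12.2 in hypg9 and 366 ± 12.7 in hypg15. From hypg20s to hypg15 the group mean of MYC was lower at each later time. Cells of hypg60 spent 60 min in the pipette and have a control of their own, Ctrl60, held 60 min at 1 g. The columns of Ctrl60 in the deposited table, and those of no other group used here, carry the words plus HEPES, a buffer, which the sources used here do not explain, so a further difference between Ctrl60 and the other groups cannot be told apart from time in its values. MYC was at 353 ± 19.7 CPM in hypg60 and 384 ± 14.8 in Ctrl60. PHF23 had 47.7 ± 2.50 CPM in the 15 min control, 66.7 ± 3.82 in hypg3 and 46.6 ± 2.36 in hypg15, which is within 1 SD of that control.

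SLC2A1 lay at 159 ± 8.98 CPM in the 15 min control, 118 ± 6.13 in hypg20s and 186 ± 8.31 in hypg15, so that the lowest means stood at the start of the exposure. DNAJB1 lay at 149 ± 6.47 CPM in the 15 min control, 137 ± 7.54 in hypg9 and 188 ± 9.11 in hypg15, and at 175 ± 11.1 in Ctrl60 and 478 ± 20.3 in hypg60. HSPA1B lay at 11.3 ± 1.11 CPM in the 15 min control and 17.5 ± 1.46 in hypg15, and at 12.9 ± 0.456 in Ctrl60 and 82.6 ± 9.97 in hypg60. Among the groups of the 9 g experiment, the means of both chaperone genes were highest in hypg60 and next in hypg15.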

How the data were processed

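Jurkat RNA-seq libraries of 3 min and 15 min at 9 g were compared. The authors deposited raw read counts per gene for 80 libraries in 1 table, and per the submitters' processing notes reads were trimmed with Trim Galore 0.6.5, aligned to hg38 with STAR 2.7.3a and counted with featureCounts 2.0.1 (2.0.3 per the file header), on Ensembl release 104 genes, with strand used. Those notes also name DESeq2 1.28.1. The deposited table gives the exon length of each gene in bases. It holds 60663 gene records. The record of ANK2 is broken over 3 lines and was left out, and 0 pairs of libraries had identical counts. GC content, known for 58336 genes, and gene type, known for 58395, came from GENCODE 29, a release other than the one counted, and 42027 genes had a symbol. Library 75 of hypg15 was left out.

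Genes were filtered with filterByExpr (minimum count 10), scaled by TMM and tested in edgeR 4.0.16 by quasi-likelihood (glmQLFTest; R 4.3.3, limma 3.58.1) on the libraries compared, with Benjamini-Hochberg adjustment over all genes tested and calls at an adjusted p under 0.05. The standard error is the log2 fold change over the square root of F. The pair of 9 min and 75 s was fitted alike, and the difference of both changes in 1 model of these 4 groups. The code was tested on simulated counts. Tables and exact permutation tests used Python 3.11.15, numpy 2.4.6, pandas 2.3.3, scipy 1.17.1 and matplotlib 3.10.9. Deviations of lists from the 3 min mean are medians of log2(CPM + 0.5).

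Genes were named by this rule: of called genes with a symbol, 10 CPM or more on average and groups apart, the 10 largest changes each way. HSP90AA1 and GAPDH, the 3 genes with the most counts and the cell type markers were added. Of each of 38 lists, up to 2 called members each way at 1 CPM or more were named, or the most abundant member where none was called. The comparison and the lists were chosen with earlier results of these data known. The result of a list and that of a marker are not reported here. Other genes are named as chosen after their values were seen.

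Alternatives were the DESeq2 1.42.0 Wald test, edgeR's RLE size factors in place of TMM, total counts, no filter, all 59 libraries of the 9 g groups in 1 model, GC content or exon length taken out with a lowess curve per library (span 0.3, prior count 2), library 75 included on the chromosomes it covers, and each library left out. Thinning all 11 libraries to 22634465 counts was chosen after seeing the data. Promoter sequences are those of RefSeq (GRCh38.p14), in which 21 of 22 chaperones tested were matched by symbol, each by the first start listed.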

Additional observations from a re-analysis of the deposited data

Results flagged for a closer look

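In 11 of 178 sets of libraries examined, each a gene or library measure within 1 group, the highest or lowest library stood apart from the rest of its group by Dixon's criterion. Chance gives this in about 1 of 20 sets, which is 8.9 of 178. At 3 min, MIR17HG, the host of a microRNA cluster, was at 40.3 CPM in library 69, with the other 5 libraries between 29.1 and 30.7 CPM. LUZP1, a leucine zipper protein gene, was lowest in library 73 at 48.6 CPM, and the glutathione enzyme gene CHAC1 highest in library 74 at 8.50 CPM. All 3 lay on the same side of the 15 min libraries as the rest of their group.

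At 15 min, library 77 was apart and low for the translation factor gene EEF1A1 (7501 CPM), the condensin gene NCAPD2 (339.9 CPM) and the proteasome gene PSMD2 (625 CPM), none of which was called. Library 80 was apart and high for the noncoding RNAs LINC00235 (21.8 CPM), SNHG25 (10.3 CPM) and SNHG17 (278 CPM) and for the collagen gene COL1A1 (9.37 CPM), and low for the T cell marker CD2 (43.7 CPM). It also had the highest GC content and the highest share in the 10 most abundant genes of the 11 libraries, and the part of these in its values was not tested.

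For 4 of the genes examined singly the change from 3 to 15 min differed from that between 75 s and 9 min in edgeR's test of the difference. The difference was −0.51 for the ubiquitin ligase adaptor gene KBTBD7, −0.75 for the ribosome assembly gene RSL24D1, 0.24 for the glycolysis regulator gene PFKFB3 and 0.41 for the Hsp40 gene DNAJB1. KBTBD7, RSL24D1 and DNAJB1 had estimates of opposite sign in both pairs, and PFKFB3 was higher at the later time in both. With GC content taken out and with total counts, DNAJB1 was called each time, RSL24D1 and KBTBD7 in 1 of these settings each and PFKFB3 in neither.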

How the results depend on the processing

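Of the 46 called genes examined singly, 31 kept sign and call under every alternative run, 34 when fits without 1 library are not counted, and 0 changed sign. Of the 38 examined genes not called, 4 were called under at least 1 alternative, BCL2L1, IRF1, RAG1 and ZNF317, and 18 had an estimate that changed sign. Of 1392 uncalled genes of the 38 lists, 77 in 25 lists were called under at least 1 alternative that keeps all 11 libraries, 48 with all 9 g groups in 1 model, 42 with GC content taken out, 16 with the DESeq2 test and 13 or fewer with each of the others. The 405 calls kept their sign in each alternative in which they were tested. Their number was 430 with edgeR's RLE size factors, 426 with total counts, 449 without the filter and 398 with exon length taken out. It was 636 with the DESeq2 test (273 lower), 1055 with all 9 g groups in 1 model (717 higher, 338 lower) and 892 with GC content taken out (500 lower). A log2 fold change beyond 1 in size left 48 (47 higher, 1 lower), since fewer genes meet both conditions. Of the 405 calls, 331 were also called with exon length taken out, 335 without the filter, 365 with total counts, 391 by DESeq2, 394 with GC content taken out, 398 with edgeR's RLE size factors and 400 in the model of all 9 g groups. On the chromosomes that library 75 covers, 443 genes were called with it and 346 without it. The thinned counts gave 365 calls, and 336 of the 399 earlier calls tested there were among them.

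Leaving out 1 library gave 217 to 371 calls, 153 to 263 of them higher and 64 to 133 lower. The total moved by more than 1.5 times without library 72 (217), 79 (246) or 70 (251). Higher calls did so without library 72 (153), 70 (165), 80 (170) or 79 (172), and lower calls without library 72 (64), 79 (74), 76 (75), 71 (85) or 70 (86). Each of these fits has 1 library fewer, and the cause of the change was not tested. For 9 min against 75 s, 436 genes were higher with GC content taken out (394 lower) and 336 lower with total counts, beside 287 and 529. The difference of both changes had 109 calls with GC content taken out (42 positive, 67 negative) and 13 with total counts (9 and 4), beside 29, and the cause was not tested. No paired analysis was possible because the library numbers of both groups share none. Genes under about 1 CPM rest on few counts. With 5 and 6 libraries 2.54% of genes were called, and smaller changes may have been missed, which was not tested.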
